A study of Mus musculus with 9 samples.

Results

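Activator protein 1 (AP-1) and early growth response (EGR) transcription factors were followed through 10 genes, which were Fos, Fosl2, Jun, Junb, Jund, Batf, Atf3, Egr1, Egr2 and Egr3. The genes were taken by name, and all 10 were found among the 54532 genes of the expression table. RNA-seq had been performed on RAW264.7, an established mouse macrophage line labelled as wild type and as derived from ascites, in 3 groups of 3 libraries. Control cells were untreated, LPS cells received lipopolysaccharide at 1 μg/ml, and LPS + G-CDs cells received the same dose of LPS plus G-CDs, which are carbon dots prepared from Glycyrrhiza, at 400 μg/ml. Exposure lasted 6 h in the treated groups, and no time was given for the control cells. The comparisons asked which of these transcripts LPS altered and whether they differed when G-CDs were present. There was no group with G-CDs alone, the labels of the LPS + G-CDs libraries name G-CDs in the title while their treatment entry lists LPS only, and the labels do not say whether replicates came from separate cultures.

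Reads on genes numbered 14752400 to 17312255 a library, and all levels are in FPKM, which corrects reads for the length of the gene and a library size. The size used was 1.108 to 1.14 times the reads on genes in control libraries. It was 0.929 to 0.936 times in LPS and 0.88 to 0.98 times in LPS + G-CDs libraries, so FPKM does not scale the groups alike to these reads. All 8 macrophage markers examined (Adgre1, Cd14, Csf1r, Itgam, Cd68, Lyz2, Fcgr1 and Ptprc) reached 1 FPKM, and their summed level ranged from 2558 to 3503 FPKM in control, from 3740 to 3942 in LPS and from 3126 to 5138 in LPS + G-CDs libraries. None of the markers of fibroblasts (0 of 5), epithelial cells (0 of 4), T cells (0 of 3) or B cells (0 of 3) reached 1 FPKM in any library, and the highest sum of any of these lists was 0.520 FPKM, for B cells. In bulk RNA such as this, fewer cells containing a transcript and less transcript per cell cannot be told apart. Replicates spread unequally, with a median SD over all tested genes of 0.24 on the log2(FPKM + 1) scale in control, 0.09 in LPS and 0.26 in LPS + G-CDs libraries. Part of that spread moved with gene length, and its values are given beside the members below.

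AP-1 is a family of dimers built from basic leucine zipper proteins. JUN proteins pair with each other or with FOS proteins, and the dimers bind a short palindromic DNA element in promoters and enhancers. BATF and ATF3 belong to the same zipper superfamily, pair with JUN proteins and can restrain or redirect the dimers they join. EGR proteins bind a GC-rich element through zinc fingers. Many of these genes are immediate-early genes, which mitogen-activated protein (MAP) kinase cascades switch on within minutes of a stimulus without new protein synthesis, and LPS activates those cascades in macrophages through Toll-like receptor 4.

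The genes lie on several chromosomes of GRCm38. Fos (12:85473890-85477273, plus strand) and Batf (12:85686669-85709087, plus strand) are on the same chromosome, as are Junb (8:84974484-84978718, minus strand) and Jund (8:70698949-70700616, plus strand). Jun lies at 4:95049034-95052222 on the minus strand, Fosl2 at 5:32135801-32157842 on the plus strand, Atf3 at 1:191170296-191218039 on the minus strand, Egr2 at 10:67535475-67542188 and Egr3 at 14:70077203-70082614, both on the plus strand. The longest transcript of each JUN gene is a single exon. The counting of reads by strand is not given in the sources used here, and 3 members share exon bases with a gene on the other strand or at the same place. Junb shares 173 exon bases (7.52%) with Prdx2, which had 50.1, 43.7 and 63.8 FPKM on average in control, LPS and LPS + G-CDs cells. Jun shares 232 (7.28%) with Junos, which stayed under 0.350 FPKM in every library, and Jund shares 877 (52.6%) with Gm11175, listed at 0 in all 9. On either strand, 48.3% of the 50-base words of the Jund transcript and 5.83% of those of Jun occur in transcripts of other genes, against 0 for the other 8 members. Those counts take in the overlaps with Gm11175 and Junos, so they are not a separate source of shared reads. The Jund level in particular depends on how shared reads were assigned.

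RefSeq promoter windows on GRCm38.p6, from 250 bases before to 50 after a start site, were matched for 8 of the 10 members (12 windows). Member windows on the chromosome of Egr1 were left out, so Egr1 is not covered, and Egr3 had no entry. The windows below belong to the members that were lower with G-CDs than with LPS alone in every library and had a matched window, namely Egr2, Fos and Fosl2. They are shown because the treated groups did not overlap for these genes, and capitals mark matches to the motifs searched. For Egr2, which had 5 windows, the one at 67537619 is printed, and matches in the others are given after it. The windows at 67537620 and 67537680 overlap the printed one and hold the same CArG box.
Egr2 (chr10:67537619-67537918, plus strand): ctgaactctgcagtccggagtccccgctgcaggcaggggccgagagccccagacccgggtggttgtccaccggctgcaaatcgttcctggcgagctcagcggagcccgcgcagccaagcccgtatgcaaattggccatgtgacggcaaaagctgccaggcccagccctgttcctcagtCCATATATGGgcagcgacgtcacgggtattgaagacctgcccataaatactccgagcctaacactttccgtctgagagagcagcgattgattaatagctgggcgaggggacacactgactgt
Fos (chr12:85473640-85473939, plus strand): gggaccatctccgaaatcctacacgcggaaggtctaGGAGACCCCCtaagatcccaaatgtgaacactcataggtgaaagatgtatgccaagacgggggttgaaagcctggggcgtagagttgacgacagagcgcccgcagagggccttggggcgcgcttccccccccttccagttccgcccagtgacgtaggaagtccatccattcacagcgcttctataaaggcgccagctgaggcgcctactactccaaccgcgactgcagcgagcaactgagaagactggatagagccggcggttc
Fosl2 (chr5:32136222-32136521, plus strand): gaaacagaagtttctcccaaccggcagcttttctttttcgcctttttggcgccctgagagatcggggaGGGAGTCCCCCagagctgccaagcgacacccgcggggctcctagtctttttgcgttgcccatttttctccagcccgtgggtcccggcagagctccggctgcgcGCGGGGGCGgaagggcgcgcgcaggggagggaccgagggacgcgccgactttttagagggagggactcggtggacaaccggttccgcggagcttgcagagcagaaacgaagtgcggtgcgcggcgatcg
Both strands were searched for the AP-1 site (TGACTCA or TGAGTCA), the cyclic AMP response element (TGACGTCA), the CArG box bound by serum response factor, the NF-κB site and the EGR site (GCGNGGGCG). In the Egr2 window the capitals are a CArG box at position -72 from the start site, a motif found in 1.63% of all 32851 windows. The Egr2 window at 67535249 holds overlapping NF-κB sites at -117 and -116, and the one at 67537316 another CArG box at -72. In the Fos window they are an NF-κB site at -214, and in the Fosl2 window overlapping NF-κB sites at -182 and -181 and an EGR site at -79. NF-κB sites were found in 8.46% and EGR sites in 5.55% of all windows. The windows of Jun, Junb, Jund, Batf and Atf3 held none of the 5 motifs as searched. None of the 12 windows held an exact AP-1 site (5.20% of all windows) or cyclic AMP response element (1.79%). Variants of these 2 motifs with other letters were not searched, so their absence is not shown. The RefSeq window of Jund (8:70697489-70697788) ends before the start of the Jund gene as counted here and does not touch it, so it says nothing of the sequence at that start. A match of letters is a description of the sequence and not evidence of binding.

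In untreated cells the JUN genes were the most abundant members. Junb averaged 58.1 ± 5.88 FPKM (SD, n = 3), above Jund at 16.8 ± 5.34 and Jun at 12.9 ± 0.426, whose library ranges overlapped. Fosl2 and Fos followed at 6.51 ± 1.57 and 5.60 ± 0.735, also with overlapping ranges, and Atf3 at 4.48 ± 0.303. Egr1, Egr3, Batf and Egr2 were all near or under 1 FPKM. Their means were 1.17 ± 0.415, 0.916 ± 0.0751, 0.649 ± 0.173 and 0.462 ± 0.0585 FPKM, and the ranges of Egr1 and Egr3 overlapped, as did those of Batf and Egr2. At this depth 12 to 21 reads stood behind a control value of Batf and 25 to 32 behind one of Egr2. All 10 genes passed the filter for testing (at least 1 FPKM in at least 3 of the 9 libraries), but Egr3 passed through the LPS libraries alone, and Batf and Egr2 through the treated libraries alone, so that their passing already favours a difference.

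**Figure D1:**
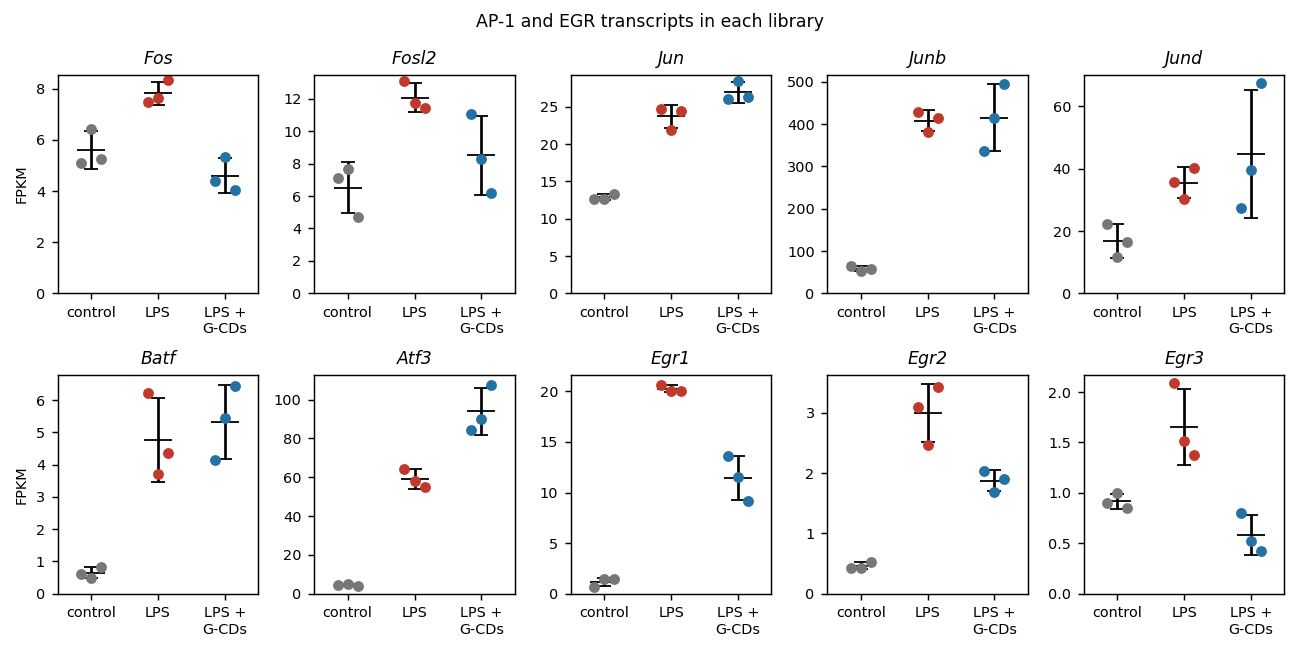
FPKM of each member in each library (points), by group, with the mean (wide bar) and SD of 3 libraries (error bars) on linear axes that start at 0 and differ between panels. All 10 genes have their 3 LPS libraries above their 3 control libraries, and Fos, Fosl2, Egr1, Egr2 and Egr3 have their 3 LPS + G-CDs libraries below the LPS libraries.

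All 10 members were higher after 6 h of LPS than in control. No earlier time was sampled, so the sizes and order of the differences hold for 6 h only. On the log2(FPKM + 1) scale the largest differences were those of Atf3, Egr1 and Junb and the smallest those of Fos and Egr3, while by the ratio of mean FPKM Batf (7.34) stood above Junb (7.02). With limma on log2(FPKM + 1), 10 of 10 were called higher at a Benjamini-Hochberg adjusted p under 0.05, where 15.8% of the 11585 tested genes were called higher and 15.6% lower. Under TPM, which sets every library to a common sum, 8.66% of tested genes were called higher and 26.4% lower and 7 of 10 members passed, and with voom on the recovered reads these were 9.96% and 27%, with 6 of 10 members. The 3 LPS libraries lay above the 3 control libraries for 10 of 10, against 27.4% of all tested genes. The median log2 fold change of the members was 1.26, beside 0.02 over all tested genes. The added 1 FPKM shrinks the differences of weakly expressed genes on this scale, so the ratio of mean FPKM is given as well.

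Among the FOS proteins, which dimerize only with other zipper proteins, Fos is the classic immediate-early gene and Fosl2 encodes Fra-2, which often appears later after a stimulus. Fos measured 5.10, 6.44 and 5.25 FPKM in the control libraries and 7.47, 7.64 and 8.34 in the LPS libraries. The groups were close but did not overlap, and the log2 fold change of 0.42 (SE 0.13, limma adjusted p = 0.037) corresponded to 1.40 times the control mean. Fosl2 measured 7.12, 7.69 and 4.73 FPKM in control and 13.1, 11.7 and 11.4 in LPS libraries. Every LPS value was well above the highest control value, and the log2 fold change was 0.82 (SE 0.21, limma adjusted p = 0.0183). The Fos call was lost without control replicate 1 or 3 and without each LPS library (adjusted p 0.0853 to 0.13), and that of Fosl2 without control replicate 3 or LPS replicate 1 or 2 (0.0533 to 0.0688). The Fos call was also lost with no filter (0.0632), under TPM (log2 fold change 0.21, limma adjusted p = 0.497) and with voom (0.22, limma adjusted p = 0.36), and that of Fosl2 under TPM (0.62, limma adjusted p = 0.179) and with voom (0.65, limma adjusted p = 0.0722).

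The JUN proteins carry the activating partner of most AP-1 dimers, with JUNB and JUND weaker activators than JUN in many settings. Jun measured 12.6, 12.7 and 13.4 FPKM in control and 24.8, 21.9 and 24.5 in LPS libraries. The groups were tight and far apart, and the log2 fold change was 0.83 (SE 0.10, limma adjusted p = 0.000351). Junb measured 63.9, 52.1 and 58.3 FPKM in control and 429, 380 and 414 in LPS libraries. Its mean was thus 7.02 times that of control, a log2 fold change of 2.79 (SE 0.17, limma adjusted p = 4.35e-06). Jund measured 22.3, 11.6 and 16.5 FPKM in control and 35.7, 30.4 and 40.3 in LPS libraries. Its control libraries spread widely although the groups stayed apart, and the log2 fold change was 1.07 (SE 0.33, limma adjusted p = 0.0345). The Jund call was lost without control replicate 2 or 3, without each LPS library and without LPS + G-CDs replicate 2 (adjusted p 0.0552 to 0.109), and also with no filter (0.0819) and with voom (0.0514).

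Batf and Atf3 encode small zipper proteins without a classic activation domain, and Atf3 is known as a feedback repressor of Toll-like receptor responses. Batf measured 0.607, 0.501 and 0.839 FPKM in control and 6.23, 3.71 and 4.35 in LPS libraries. All LPS values were several times the highest control value, with a ratio of means of 7.34 and a log2 fold change of 1.79 (SE 0.20, limma adjusted p = 0.00017). Atf3 measured 4.43, 4.80 and 4.20 FPKM in control and 64.4, 58.1 and 54.7 in LPS libraries. It had the largest log2 fold change of the 10 members, 3.45 (SE 0.13, limma adjusted p = 1.9e-07), and moved from the sixth to the second most abundant of them.

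The EGR genes encode zinc finger activators, of which EGR1 and EGR2 have known roles in macrophage differentiation and activation. Egr1 measured 0.690, 1.41 and 1.40 FPKM in control and 20.6, 20.1 and 20.0 in LPS libraries. The LPS libraries were nearly identical, and the mean was 17.3 times that of control, the largest ratio of mean FPKM among the members (log2 fold change 3.31, SE 0.18, limma adjusted p = 1.82e-06). Egr2 measured 0.424, 0.432 and 0.529 FPKM in control and 3.09, 2.47 and 3.42 in LPS libraries. Its log2 fold change was 1.44 (SE 0.13, limma adjusted p = 5.4e-05), at 6.49 times the control mean. Egr3 measured 0.895, 1.00 and 0.854 FPKM in control and 2.09, 1.51 and 1.37 in LPS libraries. The groups did not overlap, and the log2 fold change of 0.46 (SE 0.15, limma adjusted p = 0.0474) was the nearest to the threshold of the 10. The Egr3 call was lost in each fit that left out a control or LPS library and without LPS + G-CDs replicate 2 (adjusted p 0.0643 to 0.179), and also with a pseudocount of 0.1 (0.0801), with no filter (0.0894), under TPM (0.252) and with voom (0.115).

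Jun, Junb, Batf, Atf3, Egr1 and Egr2 (6 of 10) were called in every alternative analysis that tested them. Without control replicate 3, LPS replicate 1 or LPS replicate 2 the count of members called fell to 6 each time, and with no filter on low values it was 7.

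The shares of the JUN and EGR genes in their family sums had library ranges that did not overlap between control and LPS cells for any of the 6 genes, as a description without a test. Summed over Jun, Junb and Jund, the JUN genes ranged from 76.4 to 98.8 FPKM in control and from 433 to 490 FPKM in LPS libraries, and the share of Junb in the sum was 66.3% ± 1.78 and 87.3% ± 0.778 (SD, n = 3). The EGR sum ranged from 2.01 to 2.85 FPKM in control and from 24.0 to 25.8 FPKM in LPS libraries. The share of Egr1 in it was 44.8% ± 9.07 in control and 81.4% ± 1.83 in LPS cells, while that of Egr3 was 36.8% ± 7.11 and 6.64% ± 1.31. Fos and Fosl2 together ranged from 9.99 to 14.1 FPKM in control and from 19.3 to 20.5 FPKM in LPS libraries, so that the FOS sum remained far below the JUN sum in both groups. The share of Fos in that sum was 46.6% ± 5.51 and 39.3% ± 2.90, with overlapping library ranges. In LPS cells the 10 members took the order Junb, Atf3, Jund, Jun, Egr1, Fosl2, Fos, Batf, Egr2 and Egr3, and no neighbours in this order had overlapping library ranges.

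**Figure D2:**
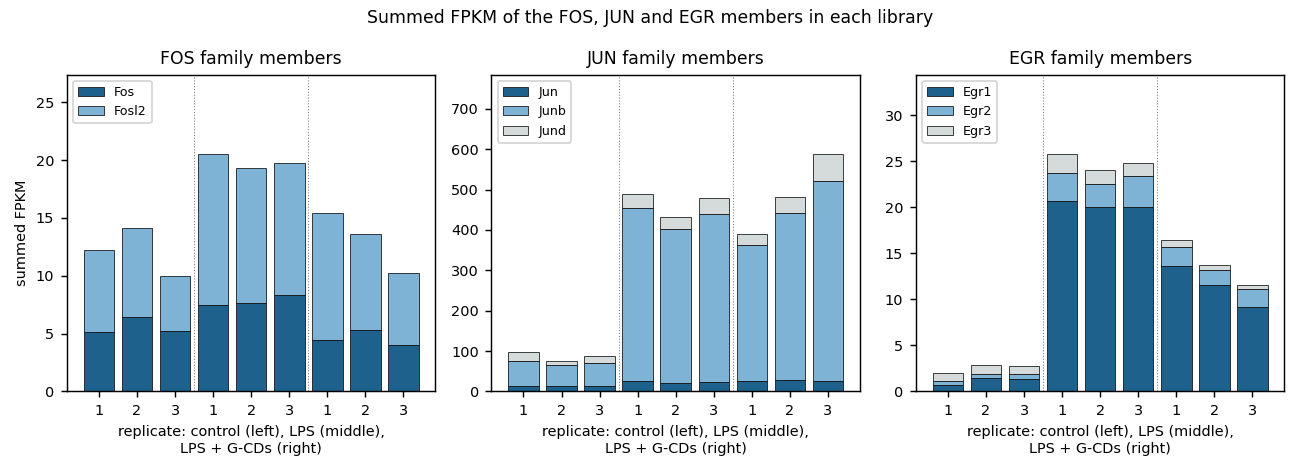
FPKM of the FOS, JUN and EGR members stacked for each of the 9 libraries, with control libraries on the left, LPS in the middle and LPS + G-CDs on the right of each panel (linear axes from 0, which differ between panels). The EGR sum lies between 24.0 and 25.8 FPKM in LPS and between 11.5 and 16.5 in LPS + G-CDs libraries, while the JUN sums of the treated groups overlap.

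When G-CDs were present with LPS, the members went in different directions. Fos, Fosl2, Egr1, Egr2 and Egr3 were lower than with LPS alone in every library, Atf3 and Jun were higher in every library, and Junb, Jund and Batf overlapped. None of the 10 passed the limma test with Benjamini-Hochberg adjustment (adjusted p under 0.05), where 0.492% of all tested genes passed. At an unadjusted limma p under 0.05, 6 of 10 stood out, 1 higher and 5 lower, against 15.2% of all tested genes. At the threshold the study used for its own comparison (p under 0.01 and over 1.5-fold), with the fold taken here on the log2(FPKM + 1) scale, Atf3 was higher and Fos, Egr1 and Egr3 were lower with G-CDs, 4 of 10 members against 2.49% of tested genes. By the ratio of mean FPKM, Egr2 (1.60-fold lower) would pass that threshold too. Groups without overlap were found for 5 members on the lower side, where 15% of all tested genes lay, and for 2 on the higher side, where 12.9% lay. voom on the recovered reads also called 0 of 10.

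The 3 EGR genes were all lower in the LPS + G-CDs libraries. Egr1 measured 13.6, 11.5 and 9.21 FPKM in these, beside 20.0 to 20.6 in LPS libraries, and its mean was 1.77-fold lower. Its log2 fold change was -0.79 (95% interval -1.19 to -0.38, limma adjusted p = 0.138), with an unadjusted p of 0.0017. Even the lowest of these Egr1 values stood far above the highest control value of 1.41 FPKM. Egr2 measured 2.04, 1.68 and 1.91 FPKM, against 2.47 FPKM in the lowest LPS library. The mean was 1.60-fold lower, with a log2 fold change of -0.47 (95% interval -0.77 to -0.17, limma adjusted p = 0.212). Egr3 measured 0.801, 0.519 and 0.420 FPKM, under the lowest LPS value of 1.37 and also under the lowest control value of 0.854. The values rested on 26 to 51 reads a library, the mean was 2.86-fold lower than with LPS, and the log2 fold change was -0.75 (95% interval -1.10 to -0.40, limma adjusted p = 0.104). Egr3 is among the genes the study selected for display from these same libraries, so its direction here is not independent evidence. Without LPS + G-CDs replicate 1, Egr1 (log2 fold change -0.91, limma adjusted p = 0.0485) and Egr3 (-0.85, limma adjusted p = 0.0476) passed the threshold.

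Both FOS genes were lower as well. Fos measured 4.41, 5.35 and 4.03 FPKM with G-CDs, beside 7.47 to 8.34 with LPS alone. The highest of these lay below the lowest LPS value and within the control range, the other two lay below that range, and the log2 fold change was -0.66 (95% interval -0.96 to -0.36, limma adjusted p = 0.0937). Fosl2 measured 11.1, 8.28 and 6.21 FPKM, and the highest of them came close to the lowest LPS value of 11.4. Its log2 fold change was -0.49 (95% interval -0.97 to -0.0033, limma adjusted p = 0.325). Fosl2 is the longest member at 9680 bases, and its LPS + G-CDs values were highest in replicate 1 and lowest in replicate 3, as for long genes in general. In the tenth of tested genes with a median length of 11450 bases, the median deviation from the group mean was 0.33 in LPS + G-CDs replicate 1 and -0.31 in replicate 3 on the log2 scale. With the length trend removed, the SD of Fosl2 over these libraries went from 0.37 to 0.12 and its log2 fold change from -0.49 to -0.24, whereas that of Fos went from -0.66 to -0.86 and those of Egr1 (-0.78), Egr2 (-0.56) and Egr3 (-0.75) stayed near their values. Removing the trend brought none of these 5 past the threshold.

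Atf3 was the member furthest on the higher side. It measured 84.3, 90.0 and 108 FPKM with G-CDs, each above the highest LPS value of 64.4, and its mean was 1.59 times that with LPS. The log2 fold change was 0.66 (95% interval 0.36 to 0.95, limma adjusted p = 0.09), with an unadjusted p of 0.000671. Without LPS + G-CDs replicate 1 it passed the threshold (0.73, limma adjusted p = 0.0437), and with the length trend removed it was 0.43 (limma adjusted p = 0.176). Jun measured 26.0, 28.5 and 26.3 FPKM, each above the LPS range of 21.9 to 24.8. The margin was small, with a log2 fold change of 0.18 (95% interval -0.06 to 0.41, limma adjusted p = 0.363).

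Junb, Jund and Batf did not separate the treated groups. Junb measured 337, 413 and 495 FPKM, around the LPS range of 380 to 429, with a log2 fold change of 0.01 (95% interval -0.38 to 0.40, limma adjusted p = 0.975). Jund measured 27.2, 39.4 and 67.4 FPKM, also around the LPS range, with a log2 fold change of 0.24 (95% interval -0.50 to 0.98, limma adjusted p = 0.664). Batf measured 4.13, 5.44 and 6.43 FPKM, within or just above the LPS range of 3.71 to 6.23, with a log2 fold change of 0.14 (95% interval -0.30 to 0.59, limma adjusted p = 0.664). These intervals do not show that the groups were alike. In all 3 genes, and in Atf3, LPS + G-CDs replicate 1 was lowest and replicate 3 highest, which was also the case for short genes. In the tenth of genes with a median length of 1118 bases, replicate 1 lay at -0.34 and replicate 3 at 0.37 from the group mean. With the length trend removed, the SD over these libraries went from 0.28 to 0.06 for Junb, from 0.64 to 0.35 for Jund and from 0.27 to 0.07 for Batf, and the log2 fold changes turned to -0.20, -0.03 and -0.13. The same removal raised the SD of Fos (0.17 to 0.32), Jun (0.07 to 0.12), Egr2 (0.09 to 0.15) and Egr3 (0.1765 to 0.1815). The Junb difference also changed sign under TPM (-0.16) and median-of-ratios scaling (-0.02). These scalings moved the median of all tested genes from 0.0174 to -0.1354 and -0.0028, so that change is not particular to Junb. With overlapping groups, no direction can be given for Junb, Jund and Batf.

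**Figure D3:**
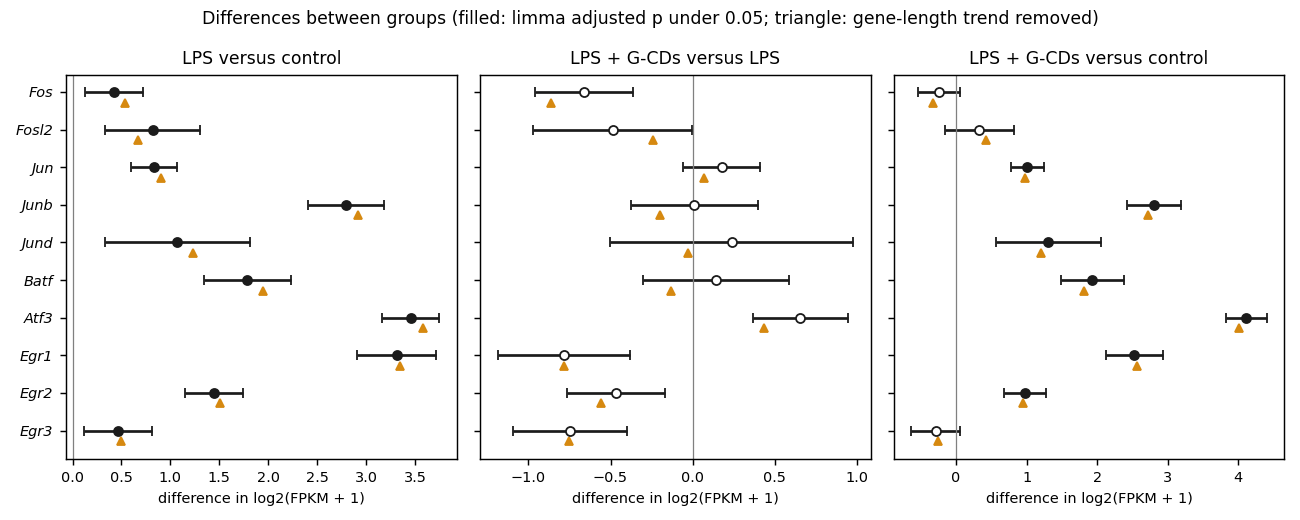
Difference in log2(FPKM + 1) of each member in the 3 comparisons (circles, filled where the limma adjusted p is under 0.05), with 95% intervals (lines) and the difference after removal of the gene-length trend (triangles). All 10 circles are filled for LPS versus control, none for LPS + G-CDs versus LPS, and 7 for LPS + G-CDs versus control.

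Against untreated cells, the LPS + G-CDs libraries were called higher for 7 of 10 members by limma (12.8% of tested genes called higher). These libraries are the same as in the preceding comparison and the control libraries the same as in that with LPS, so the 3 comparisons are not independent of each other. The 7 were Jun, Junb, Jund, Batf, Atf3, Egr1 and Egr2. Atf3 had a log2 fold change of 4.11 (limma adjusted p = 7.41e-08) beside 3.45 for LPS alone, and Egr1 had 2.53 (limma adjusted p = 1.22e-05) beside 3.31. Egr2 had 0.97 (limma adjusted p = 0.00071) beside 1.44. Jund lost its call without control replicate 2 (1.08, limma adjusted p = 0.064), without LPS + G-CDs replicate 2 (1.35, limma adjusted p = 0.051) and in a fit of the 6 libraries of the comparison alone (1.31, limma adjusted p = 0.055).

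Fos, Fosl2 and Egr3 did not pass in this comparison. Fos had a log2 fold change of -0.24 (95% interval -0.54 to 0.06, limma adjusted p = 0.225), and its libraries overlapped those of control. Fosl2 had 0.33 (95% interval -0.15 to 0.82, limma adjusted p = 0.302), also with overlap, and passed with the length trend removed (0.43, limma adjusted p = 0.0174). Egr3 had -0.29 (95% interval -0.63 to 0.06, limma adjusted p = 0.217). Its 3 LPS + G-CDs libraries nevertheless lay below the 3 control libraries, as did those of 16.6% of all tested genes, and with voom it passed (-0.97, limma adjusted p = 0.0398). TPM gave Fosl2 the opposite sign (-0.06) and brought Fos past the threshold (-0.68, limma adjusted p = 0.0333), on a scale where the median of all tested genes lay at -0.38.

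In the LPS + G-CDs cells the order of levels was Junb, Atf3, Jund, Jun, Egr1, Fosl2, Batf, Fos, Egr2 and Egr3. Library ranges of Jund and Jun overlapped, and so did those of neighbours from Egr1 to Fos. The EGR sum ranged from 11.5 to 16.5 FPKM and the FOS sum from 10.2 to 15.5 FPKM, each below its range with LPS alone, while the JUN sum ranged from 391 to 589 FPKM. Egr1 made up 82.2% ± 2.12 of the EGR sum and Junb 85.4% ± 1.21 of the JUN sum (SD, n = 3), beside 81.4% and 87.3% with LPS alone.

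Other genes of the same network were read from the same fit. Of 14 other AP-1 family zipper genes, 11 could be tested, and with LPS 7 were called higher, with a median log2 fold change of 0.95. Fosl1, which encodes the FOS relative Fra-1, rose from 8.58 ± 2.75 to 66.0 ± 4.58 FPKM (SD, n = 3), and Jdp2, which encodes a JUN partner that represses AP-1 targets, from 23.0 ± 3.15 to 92.8 ± 6.38. Both thus exceeded Fos several times over in LPS cells. Maff and Batf2 rose as well (log2 fold changes 2.38 and 2.17), although Batf2 passed the filter through the treated libraries alone. Fosb, at 0.0429 ± 0.0451 FPKM in control and 0.521 ± 0.196 in LPS cells, stayed under the filter, as did Batf3 and Maf. With G-CDs beside LPS, limma called 0 of these 11 genes. The values of Jdp2 were 130 ± 5.07 FPKM (log2 fold change 0.48, limma adjusted p = 0.207), and those of Fosl1 82.3 ± 4.71 FPKM (0.31, limma adjusted p = 0.385).

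EGR proteins are restrained by the corepressors NAB1 and NAB2. Nab2 rose with LPS from 9.19 ± 1.63 to 24.0 ± 2.28 FPKM (SD, n = 3; log2 fold change 1.30, limma adjusted p = 0.000204), and Nab1 from 19.7 ± 2.31 to 33.4 ± 1.73 (0.74, limma adjusted p = 0.00673). The 3 libraries with G-CDs lay below the 3 with LPS alone for both, as they did for 15% of all tested genes. Neither passed the test (log2 fold changes -0.32 and -0.37, limma adjusted p = 0.326 and 0.32). Egr4 was listed at 0 in all treated libraries and was not tested.

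The kinases and ternary complex factors that lie upstream of Fos and Egr1 moved in both directions. Of 20 genes, 19 were tested, and 5 were called higher and 5 lower with LPS, with a median log2 fold change of 0.19. Elk1 (1.06), Map3k8 (0.92), which encodes the kinase that relays LPS signals to ERK, and Map2k1 (0.86) rose, while Elk3 fell by 1.42 and Mapk14, which encodes p38α, fell by 1.04 on the log2 scale. The other calls were Map2k4 (0.57) and Srf (0.45) on the higher side and Mkl1 (-0.79), Map2k3 (-0.51) and Mapk9 (-0.34) on the lower side, named after their values were seen. Srf encodes serum response factor, the partner of the ELK proteins at CArG boxes. With G-CDs beside LPS, limma called 0 of 19, and their median log2 fold change was -0.08.

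Of 22 other immediate-early genes, 20 were tested, with a median log2 fold change of 1.41 for LPS. Of the 20, 17 were called higher and 3 lower, beside 15.8% and 15.6% of all tested genes. The 3 lower were Klf10 (-1.92), Klf4 (-1.23) and Klf2 (-0.80), named after their values were seen, while Klf6 of the same zinc finger family was called higher (1.25). Myc and Plk2 passed the filter through the treated libraries alone and Nr4a3 through the LPS libraries alone, and the calls of these genes count among the 17. Myc, the growth-related factor, rose from 0.0773 ± 0.0552 to 34.4 ± 1.46 FPKM (SD, n = 3; log2 fold change 5.04), and Dusp5 (log2 fold change 4.83), Zfp36 (4.35), Gadd45b (4.13) and Ier3 (3.63) followed. Dusp5 encodes a phosphatase of ERK and Zfp36 the mRNA-destabilizing protein tristetraprolin. Myc was also the only one of the 20 that passed between LPS + G-CDs and LPS, falling to 18.8 ± 2.39 FPKM (log2 fold change -0.85, SE 0.12, limma adjusted p = 0.0229). In that comparison 0.492% of all tested genes passed. Values of Zfp36 (-0.43, limma adjusted p = 0.28) and of Ier3 (0.71, limma adjusted p = 0.212) lay on opposite sides without passing. No listed gene passed without control replicate 2, without LPS + G-CDs replicate 2 or without any 1 of the LPS libraries (a count of 0 in each).

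**Figure D4:**
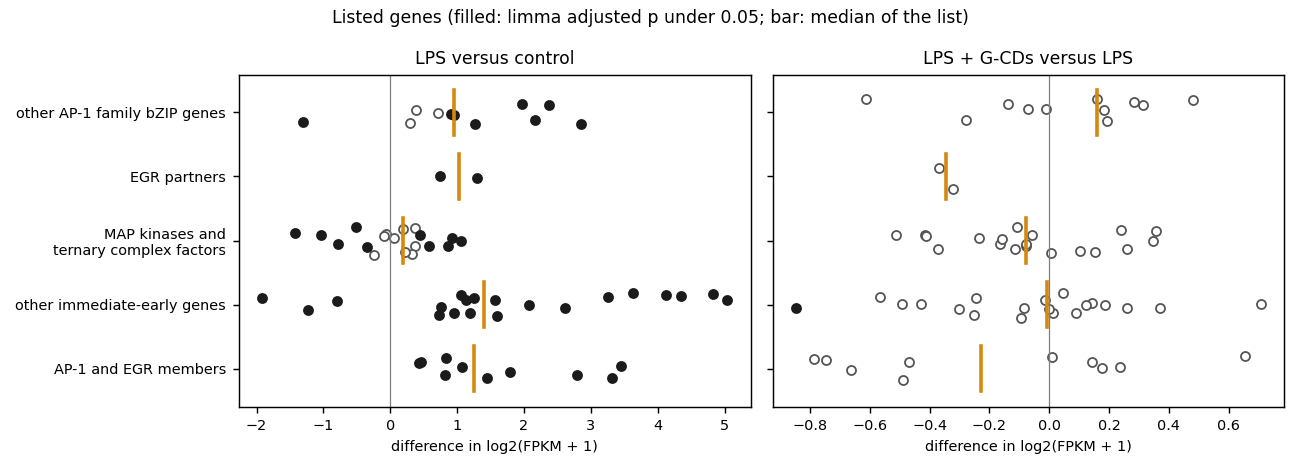
Difference in log2(FPKM + 1) of every tested gene of the 4 lists and of the 10 members, for LPS versus control and LPS + G-CDs versus LPS (points, filled where the limma adjusted p is under 0.05, with the list median as a bar). With LPS most immediate-early genes lie to the right of 0, and with G-CDs beside LPS the filled point is Myc.

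The members had unlike patterns over the 9 libraries. On log2(FPKM + 1), Pearson's r was 0.978 between Egr1 and Egr2, 0.989 between Jun and Atf3 and 0.848 between Fos and Egr3, but -0.03 between Jun and Egr3. These values describe 9 libraries that form 3 groups and share their library scaling. Differences between the groups and spread within them both enter, and their parts were not tested. Many genes matched most of the members, with 499 genes above an r of 0.95 for Junb, 476 for Egr1 and 413 for Atf3. The counts were 368 for Batf, 326 for Jun, 273 for Fosl2, 258 for Egr2 and 62 for Jund, but 1 for Fos and 0 for Egr3. Junb was most like Tapbp (0.999) and Slfn2 (0.999), Egr1 most like Cd44 (0.998) and Lcp2 (0.997), and Atf3 most like Pdcd1 (0.997) and Ifit3b (0.997). For Egr2 they were Vasp and Mcoln2 (both 0.991), for Jun Cdkn1a (0.993) and Trafd1 (0.993), and for Fosl2 Pitpnb (0.994) and Glyr1 (0.993). Jund was most like Snx20 (0.992) and Mrpl52 (0.991) and Batf most like Rnd1 (0.991) and Hsp90ab1 (0.989). The nearest genes to Fos were Khdrbs1 (0.982) and Mcmbp (0.941), and those to Egr3 were Ccdc57 and Fmnl1 (both 0.926).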

How the data were processed

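Poly(A) RNA of 9 RAW264.7 libraries was sequenced, and the authors deposited FPKM values per gene and library with gene lengths and coordinates. The aligner, the counting method, its use of strand and the test are not given in the sources used here, and the submitters' processing notes name GRCm38 and mm10. Coordinates equalled those of GENCODE M21 for 53499 of 54409 genes in both, and 0 columns of values were left unused. FPKM times gene length gave whole reads within 0.05 reads for 100% of values, which served for depth and for voom. The library size behind the FPKM was 1.108 to 1.14 times the reads on genes in control, 0.929 to 0.936 times in LPS and 0.88 to 0.98 times in LPS + G-CDs libraries.

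Genes with at least 1 FPKM in at least 3 libraries (11585) were transformed as log2(FPKM + 1) and fitted in limma 3.58.1 (R 4.3.3; lmFit, eBayes with trend) in 1 model of the 9 libraries. Tests were two-sided with Benjamini-Hochberg adjustment over all tested genes. The p-values measure the spread between these libraries, which may be technical. All members were named, with up to 5 genes per list that had the largest changes past the threshold and the 2 genes most correlated with each member. The result of 1 listed gene is not reported here. Members, lists and rules were chosen with earlier results of these data known. The fit was tested on simulated data. Tables were prepared in Python 3.11.15 (pandas 2.3.3).

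Replicate numbers are shared between groups without a stated meaning. Over all tested genes, the deviations from the group means in control and LPS libraries of the same number correlated at 0.103, 0.137 and 0.113. All were over 0.1, and on that limit the numbers were taken as pairs in an alternative fit, not in the main model. Correlations this small do not establish pairing. Those of LPS and LPS + G-CDs libraries correlated at 0.095, 0.0801 and 0.143, and those of control and LPS + G-CDs libraries at 0.28, 0.0575 and 0.653, so neither met that limit in all pairs. Control and LPS + G-CDs libraries of unlike number ranged from -0.671 to 0.504. A replicate block was an alternative, beside another pseudocount (0.1), no filter, a mean of at least 5 FPKM, TPM, median-of-ratios scaling, eBayes without trend, voom, removal of a lowess trend (span 0.3) on gene length, each library left out and the 6 libraries of a comparison alone. Removal of the length trend together with the block was added after seeing the data.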

Additional observations from a re-analysis of the deposited data

How the results depend on the processing

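The member results changed with the libraries included and with the scaling. For LPS against control, the count of 10 members became 6 with voom on the recovered reads and ranged from 6 to 10 with 1 library left out, and the lowest value arose without control replicate 3, LPS replicate 1 or LPS replicate 2. All 10 kept their direction in every alternative that tested them. For LPS + G-CDs against LPS the count of 0 ranged from 0 to 3 with 1 library left out, with 3 without LPS + G-CDs replicate 1, where 256 of all tested genes passed instead of 57. With a pseudocount of 0.1 or with single libraries left out, the listed genes that passed in this comparison numbered 0 to 1. For LPS + G-CDs against control 6 to 7 members passed with 1 library left out. Between LPS + G-CDs and LPS, Junb turned to -0.16 under TPM, -0.0153 under median-of-ratios scaling and -0.20 with the length trend removed, with or without the block, and ranged from -0.12 to 0.15 with 1 library left out. Jund turned to -0.0287 and Batf to -0.13 with the length trend removed, again with or without the block, and Jund ranged from -0.10 to 0.54 with 1 library left out. Fosl2 turned to -0.0566 under TPM against control. The cause of these shifts was not tested. TPM moved the median of all tested genes to -0.23, -0.14 and -0.38 in the order of the comparisons LPS to control, LPS + G-CDs to LPS and LPS + G-CDs to control, and voom moved it to -0.24 and -0.22 in the comparisons with control. With a replicate block, limma called 10, 0 and 7 members in that order and changed no member's call. Fewer than 130 reads a library stood behind every value of Batf and Egr3, which limits their precision.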
